A study of Homo sapiens with 12 samples.

Results

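The collagen chains and the lysyl oxidases were followed in RD cells after knockdown of the histone methyltransferase EHMT1. The family was chosen by symbol: protein-coding genes named COL, digits, A, digits, plus LOX and LOXL1 to LOXL4. This gave 49 of the 61552 genes counted, of which 11 were fibrillar collagens, 9 were network collagens, 24 were other collagens and 5 were lysyl oxidases. RD is a widely used human line established from embryonal rhabdomyosarcoma, a tumour of immature skeletal muscle character, and the labels give its genotype as FN-RMS, without saying more. Cells that received EHMT1 siRNA (n = 3 libraries) were compared with cells that received scrambled siRNA (n = 3 libraries). All 6 samples were transfected with Lipofectamine RNAiMAX, and RNA was collected at 48 h. The labels give neither the sequence nor the number of siRNAs. Whether each library came from a culture of its own is not stated either, and p-values therefore reflect only the spread among these libraries, which may be technical. The series holds another experiment, with SOX8 siRNA, that was not used here.

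Collagens are extracellular matrix proteins wound from chains that are each made by a gene of their own. Fibrillar collagens such as types I, II, III, V and XI pack into banded fibrils, whereas network collagens such as type IV build the sheet of the basement membrane that surrounds each muscle fibre. Lysyl oxidases are secreted copper enzymes that oxidise lysine residues of collagen and elastin, the first step of the cross-links that hold fibrils together. In skeletal muscle most collagen is made by fibroblasts of the connective tissue, but muscle cells and rhabdomyosarcoma cells in culture also transcribe collagen genes.

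After EHMT1 knockdown LOX and COL1A2 carried the clearest rises of the family, and the most abundant collagen transcript, COL3A1, was slightly higher. Of the 49 genes, 40 had enough counts to be tested and 13 were called, at an edgeR quasi-likelihood adjusted p under 0.05 over all 18646 genes tested. With EHMT1 siRNA 9 of these rose and 4 fell. The share of 32.5% stood beside a background of 12.4% of all genes tested, with 5.81% of all genes tested risen and 6.54% fallen. In RNA of whole cultures a transcript made by more cells and more transcript per cell cannot be told apart. Over all genes, the abundant ones were called more often: among genes with a mean of at least 10 CPM (TMM-scaled counts relative to the library total), 9 of 29 members (31.0%) and 18.0% of all 9749 such genes were called. Of the 11 tested members under 10 CPM 4 were called (36.4%). Over all genes tested 2304 of 18646 were called, and 1750 of these were among the 9749 with at least 10 CPM. The share among all genes under 10 CPM was thus below 12.4%. The 3 libraries of each group did not overlap in 16 of the 40 tested members (40.0%), beside 30.9% of all genes tested. At 10 CPM or more the shares were close, 11 of 29 members (37.9%) and 39.2% of all such genes. The median log2 fold change was 0.08 over the 40 members and 0.00 over all genes tested.

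A pair of sequence sets is shown, because each is shared by members that are described together. COL4A1 and COL4A2, whose transcripts kept nearly the same ratio in every library, start 127 bases apart on opposite strands of chromosome 13, so their promoter windows overlap by 226 bases. The windows run from 250 bases before to 50 after the RefSeq start on build GRCh38.p14, read 5′ to 3′ on each gene's own strand, with capitals on every CCAAT box and GC box (GGGCGG), on either strand.
COL4A1, minus strand, chr13:110307108-110307407: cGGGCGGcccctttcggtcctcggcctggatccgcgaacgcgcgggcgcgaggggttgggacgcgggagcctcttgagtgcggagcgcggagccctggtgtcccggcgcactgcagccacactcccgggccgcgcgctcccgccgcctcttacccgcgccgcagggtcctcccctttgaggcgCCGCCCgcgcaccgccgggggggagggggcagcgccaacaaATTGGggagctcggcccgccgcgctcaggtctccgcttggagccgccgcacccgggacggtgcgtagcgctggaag
COL4A2, plus strand, chr13:110307034-110307333: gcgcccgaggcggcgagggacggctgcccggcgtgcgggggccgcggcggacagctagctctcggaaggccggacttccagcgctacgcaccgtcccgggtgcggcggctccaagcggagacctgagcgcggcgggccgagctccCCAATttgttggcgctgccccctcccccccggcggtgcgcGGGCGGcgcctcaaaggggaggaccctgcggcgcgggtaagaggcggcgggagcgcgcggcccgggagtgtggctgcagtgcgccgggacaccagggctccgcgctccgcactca
The single CCAAT of the shared stretch reads forward in the COL4A2 window and as its reverse complement in the COL4A1 window. Promoter windows matched 36 of the 49 members. A CCAAT box stood in 13 of these 36 (36.1%) and in 39.7% of all 27305 genes with a window, a GC box in 24 (66.7%) and 48.3%, and a TATA box (TATAAA) in 7 (19.4%) and 14%. All were searched on both strands, and neighbouring motifs can share up to 2 bases, each then being counted.

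The second set is the seed match of miR-29, a microRNA family known for binding collagen transcripts. The mature RefSeq sequences share 1 seed, bases 2 to 8, shown in capitals, and the 7 bases that pair with it are in capitals in the sites.
hsa-miR-29a-3p: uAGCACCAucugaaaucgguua
hsa-miR-29b-3p: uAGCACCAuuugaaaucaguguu
hsa-miR-29c-3p: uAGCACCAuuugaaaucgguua
COL3A1 first site, plus strand, chr2:189012001-189012023: ttcaaaatgtctcaaTGGTGCTa
COL3A1 second site, plus strand, chr2:189012441-189012463: taaagacgcatgttaTGGTGCTa
COL1A2, plus strand, chr7:94430898-94430920: cttgaagaatgttgaTGGTGCTa
COL1A1, minus strand, chr17:50184572-50184594: tggggagggaatcacTGGTGCTa
COL5A2, minus strand, chr2:189032873-189032895: tttttcctttaatgaTGGTGCTa
COL4A1, minus strand, chr13:110150326-110150348: gctaatgtcacaacaTGGTGCTa
COL4A2, plus strand, chr13:110512204-110512226: caggaagggccatttTGGTGCTt
COL15A1, plus strand, chr9:99070082-99070104: atctgatccatatatTGGTGCTa
LOX first site, minus strand, chr5:122066252-122066274: acatatggacacatcTGGTGCTg
Each site lies within 1 exon, in the 3′ UTR of the transcript with the longest coding sequence in GENCODE 29 on GRCh38, and is written 5′ to 3′ on the gene's strand. The match stood in 31 of the 49 members (63.3%), beside 2298 of 19103 protein-coding genes (12%). It was present in 10 of 11 fibrillar collagens, 7 of 9 network collagens, 11 of 24 other collagens and 3 of 5 lysyl oxidases. The members' 3′ UTRs were longer, with a median of 1150 bases against 802 bases over all genes, and per kb they held 0.61 matches against 0.0976. Whether miR-29 is present in these cells was not measured, and a match is a description, not a shown site. Among tested members, 8 of the 27 with a match rose, 2 fell and their median log2 fold change was 0.17. Of the 13 without a match 1 rose, 2 fell and their median was -0.06. Of the 27 tested members that were not called 17 held a match (63%), a share close to that of the whole family. Over all genes tested 5.81% rose and 6.54% fell, but these were not split by match. The share with a match also differed between the classes, and any part of the match in the changes was not tested.

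**Figure D1:**
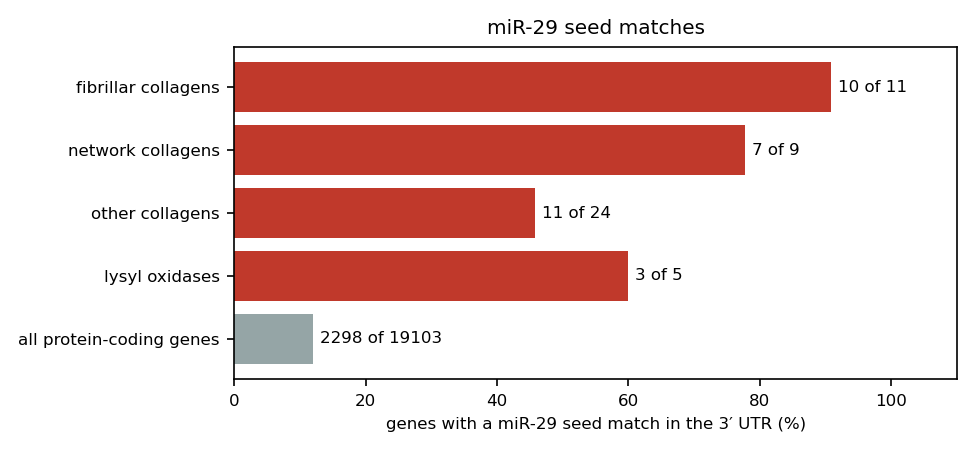
Share of genes (percent, horizontal axis, from 0) whose 3′ UTR holds the 7-base miR-29 seed match, for the 4 classes of members and for all protein-coding genes; counts stand beside the bars. Fibrillar collagens have the highest share, 10 of 11, and all protein-coding genes the lowest, 12%.

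The libraries fit their labels where this could be checked. EHMT1 (ENSG00000181090), the targeted gene, stood at 53.2, 54.3 and 57.5 CPM in the EHMT1 siRNA libraries and at 130.8, 155.8 and 130.0 CPM in the scrambled libraries. That left 39.6% of the transcript (log2 fold change -1.34, SE 0.07, edgeR adjusted p = 9.13e-09), with no overlap; permuted exactly over the 6 libraries (two-sided), the log2 CPM gave p = 0.1, the smallest possible with 3 against 3. Gene counts per library ran from 40639655 to 47258481. The skeletal muscle markers MYOD1 (mean 155 CPM with EHMT1 siRNA, 151 CPM with scrambled siRNA) and DES (298 CPM with EHMT1 siRNA, 311 CPM with scrambled siRNA) were present, and MYF5 had 0 counts in every library. Of the 10 muscle markers tested 2 were called, both risen. Over all genes tested 12.4% were called, and 18.0% of those with at least 10 CPM, so 2 of 10 was near background. PAX7 averaged 69.8 CPM with EHMT1 siRNA and 57.6 CPM with scrambled siRNA (log2 fold change 0.28, edgeR adjusted p = 0.00580). CHRNG, the fetal acetylcholine receptor chain, averaged 15.8 CPM with EHMT1 siRNA and 8.82 CPM with scrambled siRNA. Its log2 fold change was 0.83 (edgeR adjusted p = 1.32e-05). CHRNA1 (log2 fold change 0.17) and MYH3 (log2 fold change -0.26) did not overlap between the groups and were not called. The summed level of the 10 fibroblast markers was 191 to 194 CPM in EHMT1 siRNA libraries and 207 to 217 CPM in scrambled libraries, so it moved with the groups. The largest difference among them in CPM was that of THY1, which averaged 71.96 CPM with EHMT1 siRNA and 94.9 CPM with scrambled siRNA. THY1 fell (log2 fold change -0.40, edgeR adjusted p = 0.000690). Of the 6 fibroblast markers tested, however, 4 had a log2 fold change above 0 and 2 below, at a median of 0.15. PRRX1 (log2 fold change 0.10), PDGFRB (0.19) and TCF21 (0.51) were higher in every EHMT1 siRNA library and were not called. DPT had 0 counts, and PDGFRA, DCN, LUM, FAP and TCF21 stayed under 1 CPM in all 6 libraries, 6 of the 10 in all. These marker genes are named after their values were seen, and the part of such transcripts in the results was not tested. Summed epithelial markers were 80.5 to 84.5 CPM with EHMT1 siRNA and 74.8 to 84.8 CPM with scrambled siRNA. Endothelial markers summed to 18.3 to 20.04 CPM with EHMT1 siRNA and 18.0 to 19.5 CPM with scrambled siRNA, and immune markers to 0.78 to 1.12 CPM with EHMT1 siRNA and 1.01 to 1.58 CPM with scrambled siRNA, with KRT19 and HBB at 0 counts throughout. Replicate 2 was the highest library of its group for many members in both groups: with EHMT1 siRNA in 21 of the 40 tested members (52.5%, beside 32.9% of all genes tested), and with scrambled siRNA in 27 of the 40 (67.5%, beside 36.5%).

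Together the 49 genes summed to 17740 ± 136 CPM with EHMT1 siRNA and 16040 ± 502 CPM with scrambled siRNA (SD, n = 3 each), or 1.58% to 1.81% of a library's gene counts. COL3A1 by itself was 46.0% to 50.7% of that sum. Set per length of exons, which allows genes to be compared, COL3A1 stood first at 1303 ± 11.8 CPM per kb with EHMT1 siRNA and 1137 ± 39.4 CPM per kb with scrambled siRNA. COL5A2 followed at 263 ± 5.81 CPM per kb with EHMT1 siRNA and 255 ± 13.5 with scrambled siRNA. Next came COL6A1 at 109 ± 3.42 CPM per kb with EHMT1 siRNA and 98.4 ± 12.97 with scrambled siRNA, and COL4A1 at 89.0 ± 2.40 with EHMT1 siRNA and 78.9 ± 7.28 with scrambled siRNA. COL1A1, the chain that dominates bone and skin, stood lower, after 11 other members in the scrambled libraries, at 32.4 ± 0.613 CPM per kb with EHMT1 siRNA and 31.1 ± 2.91 CPM per kb with scrambled siRNA. That order below COL5A2 depends on the length used. Over the longest transcript COL4A1 came after COL5A2, at 198 CPM per kb with EHMT1 siRNA and 176 with scrambled siRNA, COL4A2 came next at 180 with EHMT1 siRNA and 160 with scrambled siRNA, and COL6A1 followed at 137 with EHMT1 siRNA and 124 with scrambled siRNA.

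**Figure D2:**
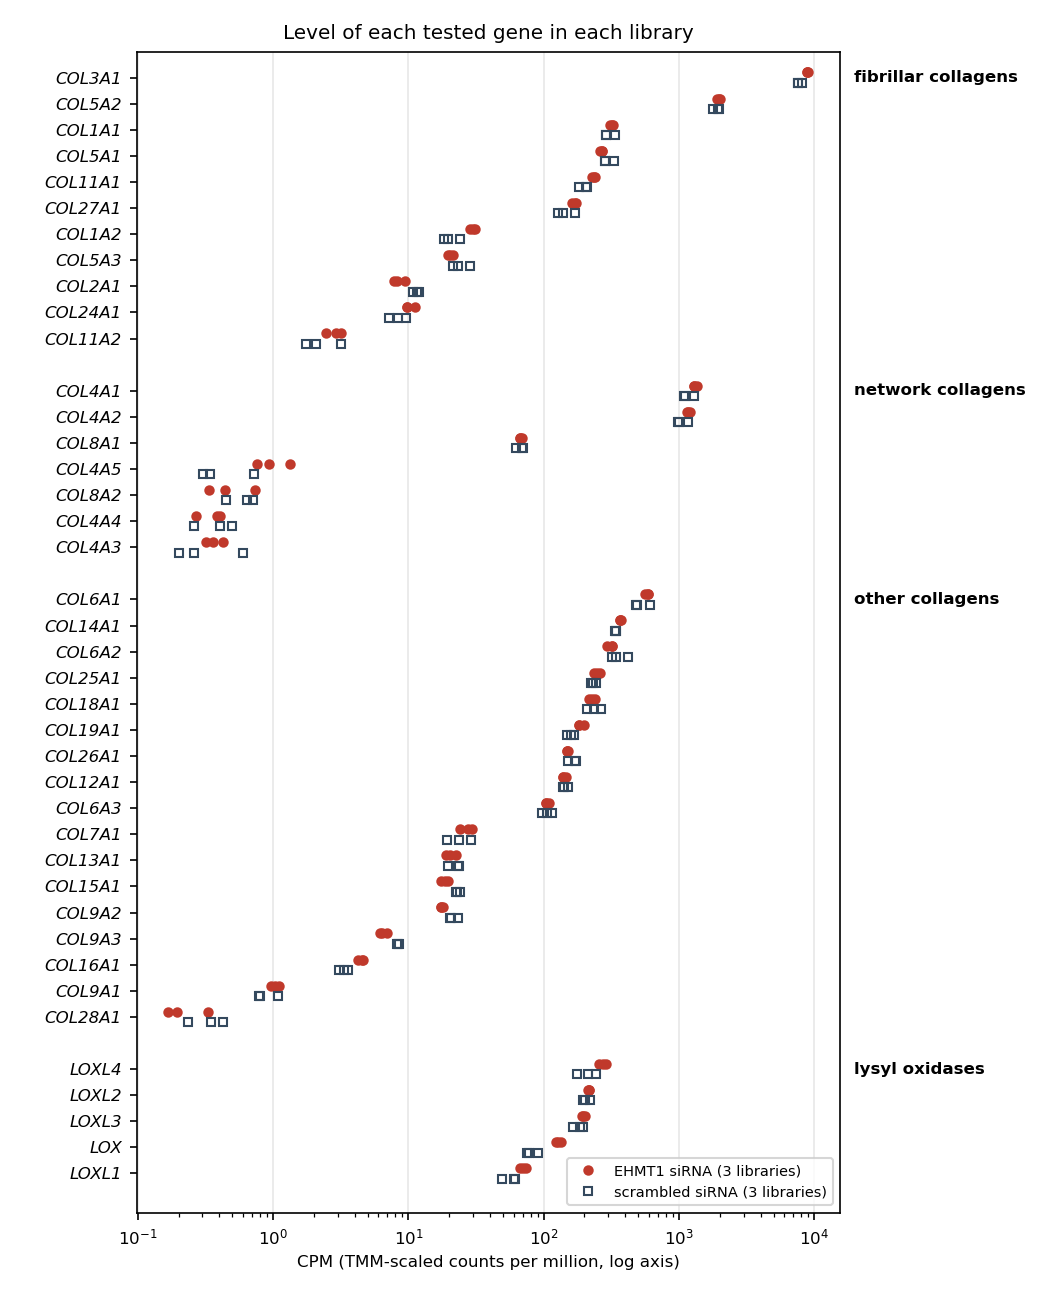
Level of each of the 40 tested members in each library, on a log axis of TMM-scaled CPM; filled circles are the 3 EHMT1 siRNA libraries and open squares the 3 scrambled siRNA libraries, by class. COL3A1 stands highest, at 7564 to 8971 CPM, and for LOX and COL1A2 the circles lie to the right of all squares.

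Among the lysyl oxidases 3 of 5 rose, the highest share of the 4 classes, beside 703 of all 9749 genes with a mean of at least 10 CPM. The log2 fold changes of the 5 genes, all above 0, ran from 0.07 to 0.66. LOX (ENSG00000113083), the founding enzyme of the family, had 135, 124 and 127 CPM in EHMT1 siRNA libraries and 91.1, 74.7 and 77.3 CPM in scrambled libraries. Every EHMT1 siRNA library was above every scrambled library, by a margin larger than the range within either group. That is a log2 fold change of 0.66 (SE 0.07, edgeR adjusted p = 1.62e-05), and it was called in each of the 6 fits with a library left out, with edgeR adjusted p of at most 0.000568. LOXL4, a family member with scavenger receptor domains, had 257, 290 and 276 CPM with EHMT1 siRNA and 177, 214 and 242 CPM with scrambled siRNA. These groups also did not overlap, but the gap between the lowest and the highest of them was small beside the spread of the scrambled libraries. LOXL4 rose by 0.38 on the log2 scale (SE 0.09, edgeR adjusted p = 0.00919), but missed the threshold without EHMT1 siRNA replicate 2 (adjusted p = 0.0671) and without scrambled replicate 2 (adjusted p = 0.171). LOXL1, the member tied to elastic fibres, had 69.9, 66.5 and 73.9 CPM with EHMT1 siRNA and 48.8, 61.1 and 60.5 CPM with scrambled siRNA. All 3 EHMT1 siRNA libraries were higher, replicate 1 of the scrambled group being the lowest of the 6. LOXL1 rose by 0.30 on the log2 scale (SE 0.08, edgeR adjusted p = 0.0162) and missed the threshold without EHMT1 siRNA replicate 1 (adjusted p = 0.0581) or 3 (adjusted p = 0.110). An antisense transcript, LOXL1-AS1, covers 9.21% of the exons of LOXL1. Summed over the 6 libraries LOXL1 had 16050 unstranded counts and 17059 in the strand column with most reads, so unstranded counting left some of its reads out. The same held for LOX, at 26588 unstranded counts and 28834 in that column. Exons of SRFBP1 on the opposite strand cover 2.49% of those of LOX. In that column LOX was also called, at a log2 fold change of 0.695 (edgeR adjusted p = 4.47e-06). The other two did not pass: LOXL2 had 214 to 218 CPM with EHMT1 siRNA and 196 to 220 CPM with scrambled siRNA (log2 fold change 0.07), and LOXL3 had 193 to 201 CPM with EHMT1 siRNA and 165 to 194 CPM with scrambled siRNA (log2 fold change 0.11). Exons of HTRA2 on the opposite strand cover 14.3% of those of LOXL3, which had 47918 unstranded counts and 55070 in the strand column with most reads. Summed over the 5 genes, the level was 885 ± 14.0 CPM with EHMT1 siRNA and 737 ± 45.3 CPM with scrambled siRNA (SD, n = 3 each).

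Of the 11 fibrillar collagens, all tested, 3 rose (COL1A2, COL11A1, COL3A1) and 1 fell (COL2A1). That was 36.4% called, beside 12.4% of all genes tested. The median log2 fold change of the 11 was 0.20. COL1A2 (ENSG00000164692), the second chain of type I collagen, had 28.7, 31.1 and 30.1 CPM with EHMT1 siRNA and 19.5, 18.2 and 23.9 CPM with scrambled siRNA. The groups did not overlap, with scrambled replicate 3 nearest to the EHMT1 siRNA libraries. Its log2 fold change of 0.54 (SE 0.09, edgeR adjusted p = 0.000718) was called with any 1 library left out, at adjusted p of at most 0.0102. COL3A1 (ENSG00000168542), the single chain of type III collagen, had 8971, 8829 and 8834 CPM with EHMT1 siRNA and 8051, 7613 and 7564 CPM with scrambled siRNA. The difference was small but larger than the spread in either group, with a log2 fold change of 0.20 (SE 0.06, edgeR adjusted p = 0.0319). COL11A1, the first chain of the minor fibrillar type XI, had 234, 240 and 228 CPM with EHMT1 siRNA and 205, 207 and 184 CPM with scrambled siRNA. Again no library of one group reached the other (log2 fold change 0.24, SE 0.06, edgeR adjusted p = 0.0147). Neither call survived the loss of a single EHMT1 siRNA library, whichever it was, at adjusted p of 0.150 to 0.185 for COL3A1 and 0.0589 to 0.113 for COL11A1. COL2A1 (ENSG00000139219), the cartilage collagen, moved the other way, at 7.82, 8.26 and 9.37 CPM with EHMT1 siRNA and 11.5, 11.96 and 10.9 CPM with scrambled siRNA. It fell by 0.43 on the log2 scale (SE 0.10, edgeR adjusted p = 0.00736), all 3 EHMT1 siRNA libraries being lower, and missed the threshold without EHMT1 siRNA replicate 1 (adjusted p = 0.0581) or 2 (adjusted p = 0.0534).

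The remaining fibrillar chains did not pass the main test. COL1A1, the partner of COL1A2 in type I collagen, had 311, 318 and 323 CPM with EHMT1 siRNA and 287, 338 and 291 CPM with scrambled siRNA, so the groups overlapped (log2 fold change 0.06, edgeR adjusted p = 0.634). COL5A2 overlapped as well, at 1911 to 1997 CPM with EHMT1 siRNA and 1788 to 1980 CPM with scrambled siRNA, with a log2 fold change of 0.04. COL5A1, whose type V collagen starts and limits the growth of type I fibrils, had 259, 267 and 269 CPM with EHMT1 siRNA and 283, 328 and 283 CPM with scrambled siRNA. Its groups stood apart, lower with EHMT1 siRNA, at a log2 fold change of -0.17 that missed the threshold (edgeR adjusted p = 0.0907). COL27A1 had 161, 174 and 170 CPM with EHMT1 siRNA and 127, 170 and 138 CPM with scrambled siRNA (log2 fold change 0.22, edgeR adjusted p = 0.0954), with scrambled replicate 2 inside the range of the EHMT1 siRNA libraries. COL5A3 had 19.5 to 21.5 CPM with EHMT1 siRNA and 21.5 to 28.4 CPM with scrambled siRNA, a log2 fold change of -0.26 at edgeR adjusted p = 0.0763. COL24A1 and COL11A2, both under 12 CPM, had log2 fold changes of 0.29 and 0.30 and were not called. With an offset for GC content and length COL5A1 (adjusted p = 0.00364), COL5A3 (0.0216) and COL27A1 (0.0215) were called, in the same directions. With no filter on low counts COL5A3 (0.0264) and COL27A1 (0.00779) were called. COL5A1 was also called without scrambled replicate 1 (0.0467) and stood at -0.10 without scrambled replicate 2 (0.130). COL5A3 was called without scrambled replicate 3 (0.0303) and stood at -0.14 without scrambled replicate 2 (0.188). COL27A1 was called without scrambled replicate 2, at 0.35 (adjusted p = 2.04e-05), and stood at 0.13 without scrambled replicate 1 (0.324).

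**Figure D3:**
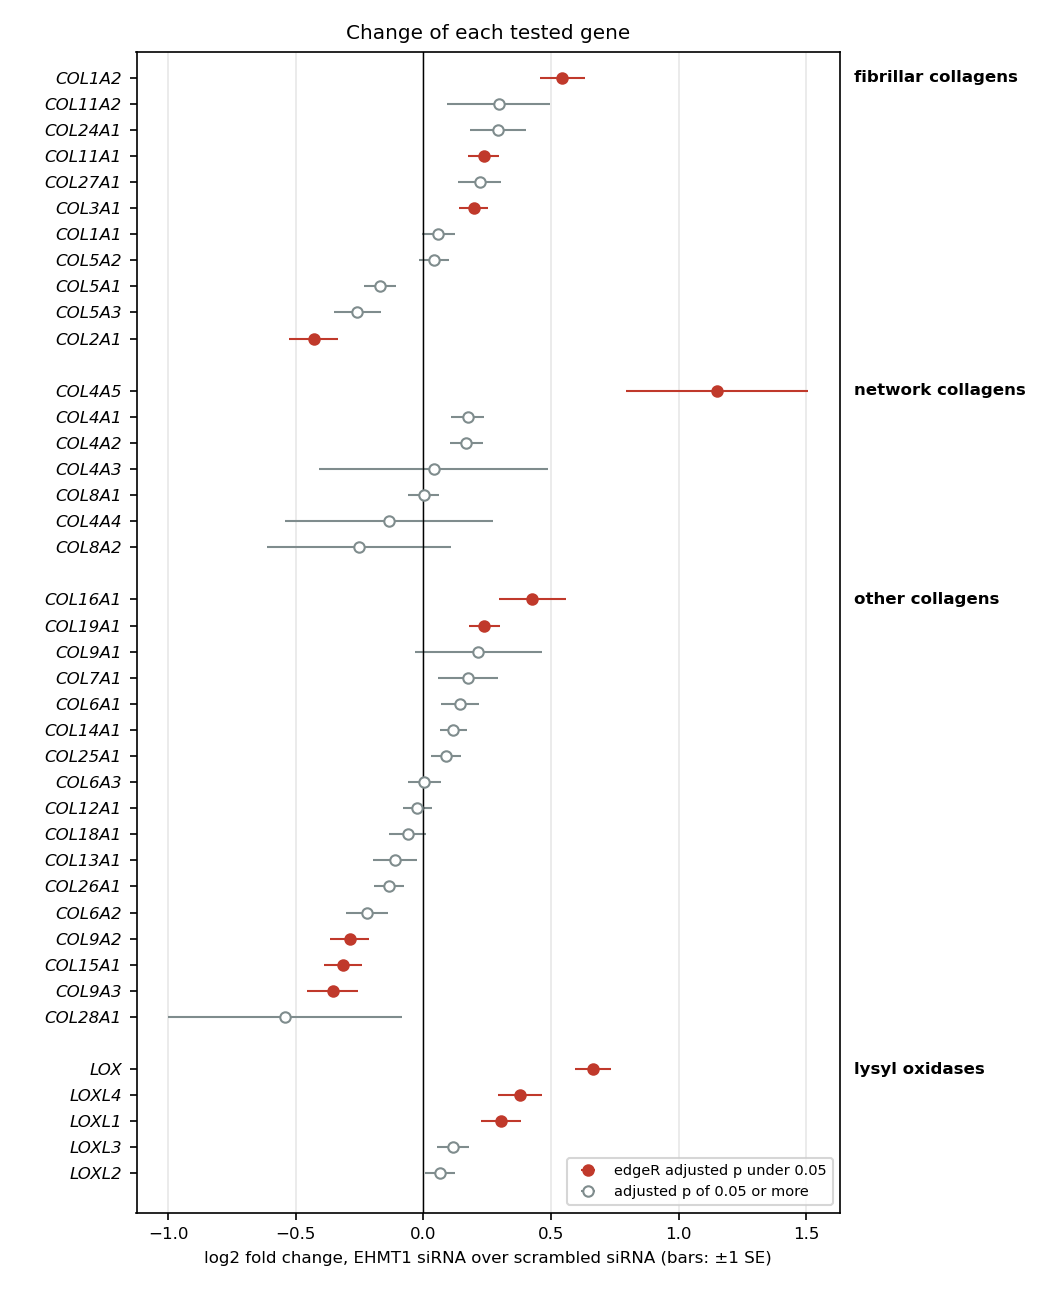
Log2 fold change of EHMT1 siRNA over scrambled siRNA for the 40 tested members, by class; bars are ±1 SE and filled circles have an edgeR adjusted p under 0.05. Of the lysyl oxidases all 5 lie above 0, LOX at 0.66, while the other collagens lie on both sides.

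Of the 9 network collagens 7 were tested, and 1, at the edge of detection, was called (14.3%, beside 12.4% of all genes tested). COL4A1, the major chain of the basement membrane network, had 1284, 1352 and 1300 CPM with EHMT1 siRNA and 1112, 1286 and 1091 CPM with scrambled siRNA. COL4A2, which joins it in the same trimers, had 1149, 1205 and 1157 CPM with EHMT1 siRNA and 991, 1156 and 977 CPM with scrambled siRNA. In both, scrambled replicate 2 reached the EHMT1 siRNA libraries and the other two stayed below them. Neither passed the main test: the log2 fold change was 0.17 for each, at edgeR adjusted p = 0.0956 for COL4A1 and 0.111 for COL4A2. Without scrambled replicate 2 both were called, at log2 fold changes of 0.25 (adjusted p = 0.000295) and 0.25 (adjusted p = 0.000314), and COL4A1 was called with no filter on low counts (adjusted p = 0.0414). COL4A5 (ENSG00000188153), a chain of the kidney basement membrane, had 56, 39 and 31 counts with EHMT1 siRNA and 16, 29 and 13 counts with scrambled siRNA. Those counts are 1.32, 0.94 and 0.76 CPM with EHMT1 siRNA and 0.34, 0.73 and 0.31 CPM with scrambled siRNA, which did not overlap, though replicate 3 of the EHMT1 siRNA group and replicate 2 of the scrambled group nearly met. The log2 fold change of 1.15 (SE 0.36, edgeR adjusted p = 0.0439) was called again only without scrambled replicate 2 (adjusted p = 0.00220), and the 5 other fits with a library left out gave adjusted p of 0.0596 to 0.232. COL8A1, of the short-chain network collagens, had 66.2 to 68.9 CPM with EHMT1 siRNA and 62.4 to 69.7 CPM with scrambled siRNA, at a log2 fold change of 0.00. COL8A2, COL4A3 and COL4A4 stayed under 1 CPM and were not called. Most of the stranded reads over COL4A3 and COL4A4 were in the strand column that is sparse for most other members. Only 6.67% and 23.4% were in the column that held 87.1% to 89.0% of each library's strand counts, so their levels are uncertain. Exons of MFF-DT on the opposite strand cover 1.315% of those of COL4A3. COL10A1 and COL4A6 were not tested, with at most 0.2001 CPM in any library.

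Of the 24 other collagens 17 were tested, 2 rose and 3 fell (29.4% called), and the median log2 fold change was -0.02. FACIT collagens, which lie on the surface of fibrils, held 4 of these 5 calls in both directions. That was 4 of 7 tested (57.1%), beside 12.4% of all genes tested. COL19A1 had 183, 197 and 181 CPM with EHMT1 siRNA and 160, 166 and 150 CPM with scrambled siRNA. Those groups did not overlap (log2 fold change 0.24, SE 0.06, edgeR adjusted p = 0.0139). COL16A1 had 4.63, 4.53 and 4.27 CPM with EHMT1 siRNA and 3.33, 3.08 and 3.58 CPM with scrambled siRNA, likewise apart (log2 fold change 0.43, SE 0.13, edgeR adjusted p = 0.0412). COL9A2 and COL9A3, chains of the cartilage collagen type IX that sits on type II fibrils, fell. COL9A2 had 17.3, 18.1 and 17.3 CPM with EHMT1 siRNA and 20.3, 23.2 and 20.8 CPM with scrambled siRNA (log2 fold change -0.29, SE 0.08, edgeR adjusted p = 0.0198). COL9A3 had 6.97, 6.17 and 6.39 CPM with EHMT1 siRNA and 8.22, 8.48 and 8.30 CPM with scrambled siRNA (log2 fold change -0.36, SE 0.10, edgeR adjusted p = 0.0271). The third chain, COL9A1, had 0.97 to 1.10 CPM with EHMT1 siRNA and 0.79 to 1.08 CPM with scrambled siRNA and was not called, at a log2 fold change of 0.22; only 47.9% of its strand counts were in the main strand column. COL15A1, a basement membrane collagen that anchors muscle fibres and capillaries, had 17.5, 18.6 and 19.5 CPM with EHMT1 siRNA and 22.4, 24.1 and 22.7 CPM with scrambled siRNA. All EHMT1 siRNA libraries were below all scrambled ones (log2 fold change -0.31, SE 0.07, edgeR adjusted p = 0.00996).

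None of these 5 calls held with every library left out in turn. COL19A1, COL9A2 and COL9A3 missed the threshold without any 1 of the EHMT1 siRNA libraries, at edgeR adjusted p of 0.0528 to 0.132 for COL19A1, 0.0692 to 0.101 for COL9A2 and 0.0543 to 0.145 for COL9A3. COL15A1 missed it without EHMT1 siRNA replicate 1 (adjusted p = 0.0824) or 2 (adjusted p = 0.0577). COL16A1 kept its call only without scrambled replicate 3 (adjusted p = 0.0440), the other 5 fits giving 0.0665 to 0.165, and lost it with no filter on low counts (adjusted p = 0.0526). In the strand column with most reads COL16A1 (adjusted p = 0.0530) and COL9A3 (adjusted p = 0.0860) were not called.

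Type VI collagen, the beaded filament that links the basement membrane of muscle to its surroundings, had its chains on different sides of 0, none past the threshold of the main test. COL6A1 had 560, 594 and 590 CPM with EHMT1 siRNA and 484, 606 and 488 CPM with scrambled siRNA (log2 fold change 0.14, edgeR adjusted p = 0.242). COL6A2 had 291, 319 and 318 CPM with EHMT1 siRNA and 318, 421 and 341 CPM with scrambled siRNA (log2 fold change -0.22, edgeR adjusted p = 0.0927). COL6A3 had 104 to 110 CPM with EHMT1 siRNA and 97.9 to 114.5 CPM with scrambled siRNA, at a log2 fold change of 0.00. In both COL6A1 and COL6A2 scrambled replicate 2 was the highest library, and without it COL6A1 was called, at 0.25 (adjusted p = 0.000265), whereas COL6A2 stood at -0.10 (adjusted p = 0.196). Without scrambled replicate 1 COL6A2 was called, at -0.30 (adjusted p = 0.0252). The offset for GC content and length called both, COL6A1 at 0.15 (adjusted p = 0.0397) and COL6A2 at -0.20 (adjusted p = 0.0126), and with no filter on low counts COL6A2 was called (adjusted p = 0.00877). Of the members with at least 10 CPM, the 7 left, COL14A1, COL25A1, COL18A1, COL26A1, COL12A1, COL7A1 and COL13A1, had log2 fold changes from -0.13 (COL26A1) to 0.17 (COL7A1) and were not called in the main test; without scrambled replicate 1 COL26A1 was called, at -0.19 (adjusted p = 0.0304), and without scrambled replicate 2 COL7A1 was, at 0.32 (adjusted p = 0.0163). COL14A1 stood at 365, 371 and 365 CPM with EHMT1 siRNA and 340, 340 and 335 CPM with scrambled siRNA, apart but at a log2 fold change of 0.12 (edgeR adjusted p = 0.166). SLC19A1 on the opposite strand shares 16.4% of the exons of COL18A1, which had 58709 unstranded counts and 71746 in the strand column with most reads. COL28A1 was tested at under 1 CPM and was not called. The 7 not tested were COL20A1, COL17A1, COL6A5, COL23A1, COL6A6, COL21A1 and COL22A1, at no more than 0.353 CPM in any library; COL6A5 had 18 counts summed over the EHMT1 siRNA libraries and 1 over the scrambled libraries, and COL21A1 had 7 over the EHMT1 siRNA libraries and 0 over the scrambled libraries.

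**Figure D4:**
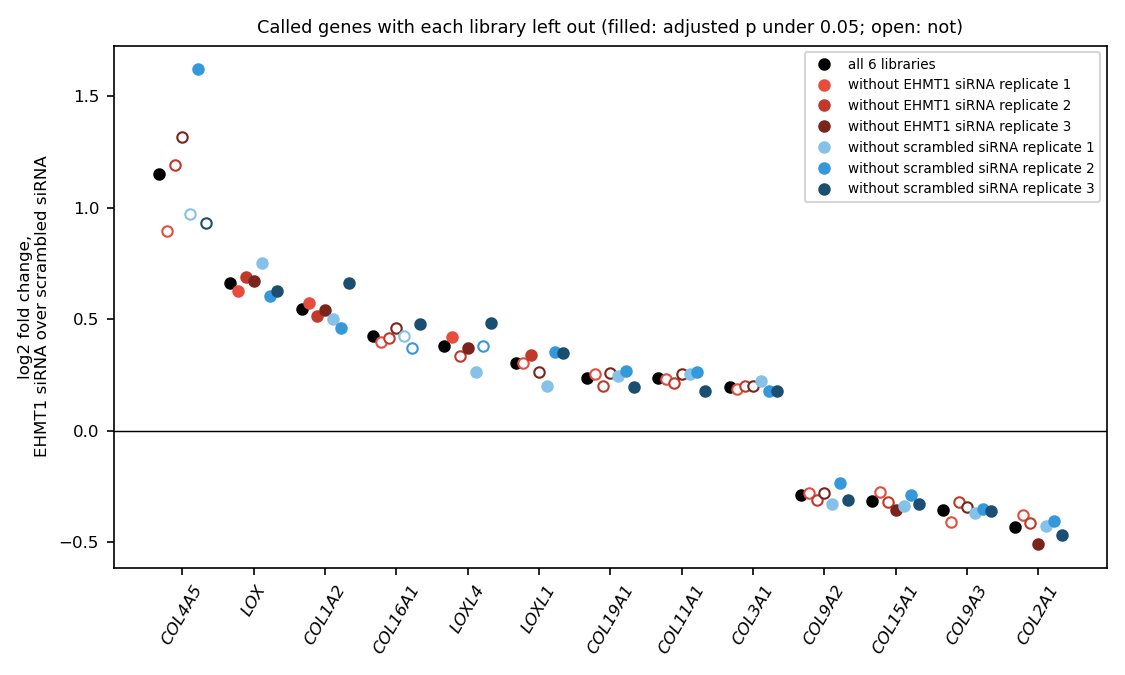
Log2 fold change (vertical axis) of the 13 called members with all 6 libraries and with each library left out; filled circles have an edgeR adjusted p under 0.05 in that fit and open circles do not. LOX and COL1A2 are filled throughout, and no gene crosses 0.

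Leaving out 1 library moved the number of calls more than the fold changes, as the plot of the 13 genes with each library left out shows. Without EHMT1 siRNA replicate 1, 2 or 3 the members called numbered 3, 3 and 5, with 3 risen in each case. Over all genes the same fits called 452 to 565 risen and 484 to 607 fallen genes, beside 1084 and 1220 with all 6 libraries. Without scrambled replicate 1 there were 7 risen and 7 fallen members, without replicate 2 there were 16 and 4, and without replicate 3 there were 8 and 5. Over all genes the same fits called 1032 risen and 1158 fallen, then 1625 and 1923, then 959 and 1261. Calls thus rose over all genes as well without scrambled replicate 2. Of the 20 members called without scrambled replicate 2, 11 were among the 13 called with all 6 libraries; the 9 added were COL4A1, COL4A2, COL6A1, COL27A1, COL24A1, COL11A2, COL1A1, COL7A1 and LOXL3, all higher with EHMT1 siRNA. Without scrambled replicate 1 the 3 fallen members added were COL5A1, COL6A2 and COL26A1. These are named for having been added, a choice made after their values were seen.

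The chains of 1 trimer were also compared within each library, as the log2 ratio of their counts per kb, which does not depend on library size. There were 5 such ratios, each with an exact two-sided permutation test adjusted over the 5, and none of these tests can fall below p = 0.1. COL1A2 over COL1A1 was -3.63, -3.54 and -3.61 with EHMT1 siRNA and -4.07, -4.40 and -3.79 with scrambled siRNA, a difference of 0.49 (exact p = 0.1, adjusted p = 0.167). Per kb the level of COL1A2 was thus 0.083 of that of COL1A1 with EHMT1 siRNA and 0.059 with scrambled siRNA, although the type I trimer has 1 COL1A2 chain to 2 of COL1A1. That level depends on the length used: over the longest transcripts it was 0.106 with EHMT1 siRNA and 0.075 with scrambled siRNA. COL5A2 over COL5A1 was 3.51, 3.49 and 3.42 with EHMT1 siRNA and 3.36, 3.18 and 3.24 with scrambled siRNA, a difference of 0.21 (exact p = 0.1, adjusted p = 0.167). COL6A2 over COL6A1 was -0.96, -0.91 and -0.90 with EHMT1 siRNA and -0.62, -0.54 and -0.53 with scrambled siRNA, a difference of -0.36 (exact p = 0.1, adjusted p = 0.167). The 3 ratios had groups that did not overlap, and for COL6A2 over COL6A1 the gap was several times the spread within a group although neither gene was called. COL6A3 over COL6A1 averaged -4.33 ± 0.05 with EHMT1 siRNA and -4.19 ± 0.22 with scrambled siRNA, which overlapped (exact p = 0.4, adjusted p = 0.4). By contrast COL4A2 over COL4A1, the pair that share the promoter stretch printed above, averaged -0.553 ± 0.00441 with EHMT1 siRNA and -0.548 ± 0.00624 with scrambled siRNA (SD, n = 3 each). Both chains thus moved together from library to library, including the high scrambled replicate 2. The difference of -0.0049 was within the spread of the ratio (exact p = 0.4, adjusted p = 0.4). Any part of the shared promoter stretch in this was not tested. COL4A4 and COL4A3 start 419 bases apart on opposite strands, and COL4A6 and COL4A5 380 or 1416 bases. For neither of these pairs was a ratio computed.

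**Figure D5:**
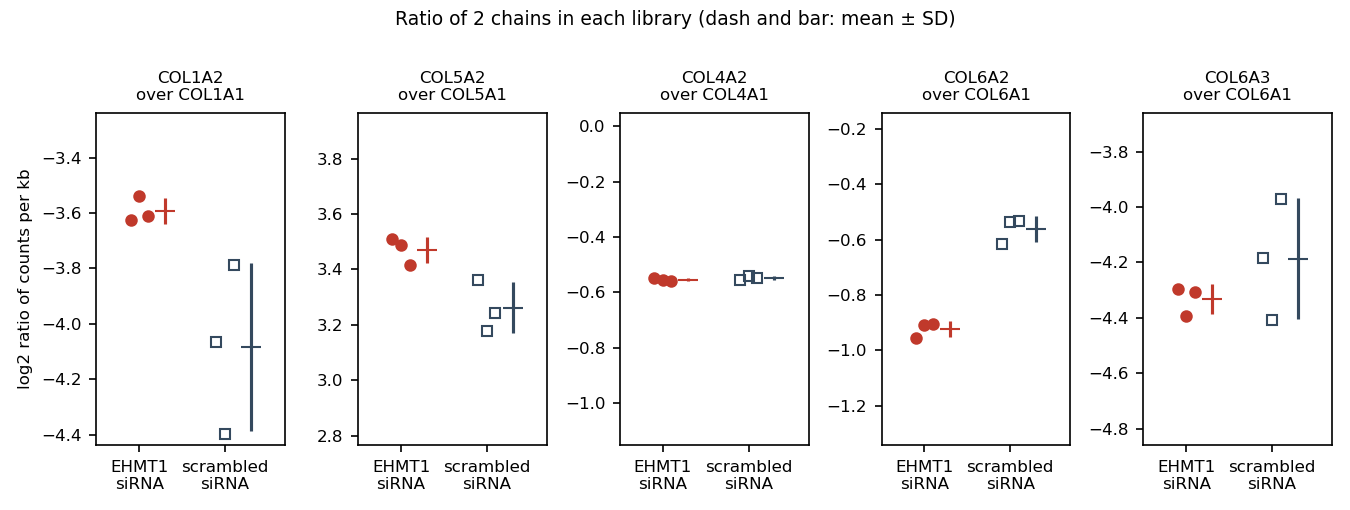
Log2 ratio of counts per kb of a pair of chains in each library, EHMT1 siRNA left and scrambled siRNA right in each panel; dashes with bars are means ± SD, and every panel spans the same height on the log2 scale. The 6 points of COL4A2 over COL4A1 lie between -0.557 and -0.542, while those of COL6A2 over COL6A1 form separate groups.

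Other genes that make, export, bind or degrade collagen were taken from 7 lists of 92 genes, of which 77 were tested, 9 rose and 5 fell (18.2%, beside 12.4% of all genes tested and 18.0% of those with at least 10 CPM), at a median log2 fold change of 0.02. The lists for folding and modifying, export, fibril-associated and elastic fibre proteins had 14.3%, 11.1%, 12.5% and 9.09% of their tested genes called, near the share of all genes. Of 21 enzymes and chaperones that fold and modify collagen 1 rose and 2 fell: P4HA3, a prolyl hydroxylase subunit, averaged 7.10 ± 0.324 CPM with EHMT1 siRNA and 4.62 ± 0.946 CPM with scrambled siRNA (log2 fold change 0.62). COLGALT2, which adds galactose to collagen, averaged 2.71 ± 0.232 CPM with EHMT1 siRNA and 4.13 ± 0.651 CPM with scrambled siRNA (log2 fold change -0.61). HSPA5, the main chaperone of the endoplasmic reticulum, averaged 1219 ± 14.1 CPM with EHMT1 siRNA and 1507 ± 44.1 CPM with scrambled siRNA (log2 fold change -0.31). In the export list 1 of 9 rose, SPARC, a collagen-binding secreted protein, at 1445 ± 4.05 CPM with EHMT1 siRNA and 1170 ± 28.6 CPM with scrambled siRNA. Of 7 tested procollagen proteinases and enhancers edgeR called 0, DESeq2 1 and limma-voom 0, and 2 had an unadjusted edgeR p under 0.05, beside 4774 of all 18646 genes tested. Among fibril-associated proteins 1 of 8 rose, TNXB, a tenascin that binds fibrils, at a log2 fold change of 0.31.

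Elastic fibre proteins had 1 call among 11, LTBP2, which is deposited on microfibrils, at 58.1, 58.4 and 60.6 CPM with EHMT1 siRNA and 33.2, 36.4 and 32.3 CPM with scrambled siRNA (log2 fold change 0.80, SE 0.06, edgeR adjusted p = 7.24e-07). Collagen receptors had the highest share of calls of the 7 lists, 5 of 10, with 3 risen and 2 fallen. The collagen-binding integrin chains ITGA11 (log2 fold change 1.05, SE 0.11, edgeR adjusted p = 1.47e-05), ITGA10 (0.80, SE 0.15, adjusted p = 0.00224) and ITGA1 (0.34, SE 0.07, adjusted p = 0.00273) rose. Their common partner chain ITGB1 fell, at 283, 285 and 278 CPM with EHMT1 siRNA and 350, 360 and 312 CPM with scrambled siRNA (log2 fold change -0.27, SE 0.06, adjusted p = 0.00719). ITGA11 itself had 8.27, 8.62 and 9.66 CPM with EHMT1 siRNA and 4.36, 4.45 and 3.98 CPM with scrambled siRNA, so the groups were far apart. Of 11 tested proteases and inhibitors of collagen breakdown 2 rose and 1 fell (27.3% called, beside 12.4% of all genes tested). MMP14, a membrane-bound collagenase, had 328, 338 and 334 CPM with EHMT1 siRNA and 263, 296 and 273 CPM with scrambled siRNA (log2 fold change 0.27, SE 0.06, adjusted p = 0.00600). The collagenase MMP13 rose at the edge of detection, under 1 CPM in every library (log2 fold change 1.85, SE 0.49, adjusted p = 0.0201), and TIMP3, an inhibitor of these enzymes, fell by 0.22 on the log2 scale (SE 0.06, adjusted p = 0.0198).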

How the data were processed

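Per the labels' protocols, poly-A RNA of RD cells went into NEBNext Ultra libraries. The deposited values are raw counts per gene, in the layout of a STAR gene table; named in the submitters' processing notes are the genome build hg19 and the tools STAR 2.5, HTSeq 0.6.1, CASAVA, bcl2fastq and DESeq2. The gene annotation is not given in the sources used here, and the identifiers are later than hg19, so coordinates are those of the reference tables (GRCh38). Unstranded counts were used. Reads naming no gene (20.01% to 21.2%) stayed out. Groups came from sample titles.

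The main test used edgeR 4.0.16 (R 4.3.3), with genes kept by filterByExpr at a minimum count of 10, TMM factors, a robust quasi-likelihood fit on group, its F test and Benjamini-Hochberg adjustment over all genes, with a threshold of 0.05. CPM values are TMM-scaled, and lengths are unions of GENCODE 29 exons. A count of 0 allows up to 3 counts, or 0.0641 to 0.0750 CPM, for counting error only. No replicate pair was a duplicate: chi-square over its degrees of freedom was 2.98 to 3.36 between EHMT1 siRNA libraries and 8.88 to 21.0 between scrambled libraries, above sampling noise. Members and lists were chosen with earlier results of these data known. Named genes were EHMT1, members that were called or had a mean of at least 10 CPM, and up to 4 called genes per list. Alternatives were RLE and upper quartile factors, other filters, DESeq2 1.42.0, limma-voom (limma 3.58.1), a replicate block, a GC and length offset, either strand column, a threshold of 0.01, another length, and leaving out each library.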

Additional observations from a re-analysis of the deposited data

How the results depend on the processing

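With all 6 libraries 9 members rose and 4 fell. RLE and upper quartile factors, DESeq2 and limma-voom gave the same counts; no filter gave 10 and 6, at least 1 CPM in 3 libraries 8 and 4, and the strand column with most reads (column 4) 8 and 3. The sparse strand column 3 gave 1 and 0 members, and 90 and 87 genes in all. A threshold of 0.01 left 3 and 2 members, and 492 and 525 genes. With single libraries left out, members risen numbered 3 to 16 and members fallen 0 to 7, genes risen 452 to 1625 and genes fallen 484 to 1923, and other genes of the pathway called 9 to 26, beside 14. The GC and length offset called 11 risen and 7 fallen members, and 1622 risen and 1839 fallen genes; the cause was not tested. Of 219 values of the 13 called members under alternatives 172 kept their call, 47 lost it and 0 changed sign. In strand column 3 LOXL4 kept its call, and LOX (adjusted p = 0.0782) and COL1A2 (adjusted p = 0.170) lost it.

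Same-numbered libraries correlated at 0.126, 0.048 and 0.042, and libraries of unlike number at -0.096 to 0.050. EHMT1 siRNA replicate 3 correlated slightly better with scrambled replicate 2 (0.050) than with scrambled replicate 3 (0.042). Whether the numbers pair the samples is not stated in the labels and is not settled by these values, and the main test used no pairing. The replicate block called 12 risen and 7 fallen members, adding COL4A1 (adjusted p = 0.0289), COL4A2 (0.0342) and COL27A1 (0.00783) to the risen and COL5A1 (0.0416), COL5A3 (0.0190) and COL6A2 (0.0128) to the fallen, and 1474 risen and 1632 fallen genes; with the GC and length offset it called 13 and 7 members, and 1962 and 2154 genes.

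Signs turned for members that were not called. In strand column 3 the log2 fold change was -0.15 for COL4A3, -0.23 for COL8A1 and -0.078 for COL25A1; in column 4 it was -0.45 for COL9A1, and the difference in COL4A2 over COL4A1 was 0.0056. With the GC and length offset, it was -0.051 for COL6A3 and -0.0084 for COL8A1, and with the block added -0.050 and -0.0074. Leaving out 1 library gave -0.0041 to 0.066 for COL5A2, -0.24 to 0.67 for COL4A3, -0.36 to 0.070 for COL4A4, -0.051 to 0.063 for COL6A3, -0.052 to 0.024 for COL8A1, -0.054 to 0.016 for COL12A1 and -0.14 to 0.018 for COL18A1. Levels over the longest transcript instead of all exons summed to 2828 CPM per kb in scrambled libraries, beside 2160. COL4A6 over COL4A5 was not computed, since COL4A6 averaged under 10 counts, and counts under about 1 CPM limit the values of COL4A3, COL4A4, COL4A5, COL8A2, COL9A1 and COL28A1.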
